A study of Homo sapiens with 2 samples.

Results

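Interferon-stimulated genes and RNA sensors were examined in 2 established human prostate cancer cell lines, RC77 T/E and MDA PCa 2b. The 48 genes were chosen by name, as interferon-stimulated genes, sensors of viral RNA and genes of interferon signaling. Earlier results of these data were known when they were chosen. All 48 were found among the 21382 gene symbols of the deposited table. Total RNA of each cell line was sequenced as 1 paired-end, directional library, so no value has a replicate error and no test across libraries was possible. MDA PCa 2b cells were grown in a Ham's F-12 based medium with 20% FBS, cholera toxin, epidermal growth factor, hydrocortisone and insulin, and RC77 T/E cells in keratinocyte serum-free medium with bovine pituitary extract and epidermal growth factor. Cell line and medium therefore cannot be told apart. No treatment with an interferon, a virus or another agent beyond the medium is described, so the values are taken as baseline levels. How each cell line was first established, with viral genes or without, was not examined.

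Type I interferons bind the receptor chains IFNAR1 and IFNAR2, whose kinases JAK1 and TYK2 phosphorylate STAT2. STAT2 joins IRF9 in the complex ISGF3, which binds interferon-stimulated response elements in promoters. Interferon gamma uses IFNGR1 and IFNGR2 with JAK1 and JAK2 instead, and acts through gamma-activated sites. The induced genes include inhibitors of viral entry, translation and replication, and also the sensors and transcription factors of the pathway itself, so that many of them are kept at some level in resting cells.

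Expression was deposited as TPM, a measure of transcript abundance that corrects for gene length and library total and keeps no record of read number. Sequencing depth is unknown, which leaves the counting error of each value unmeasured. Most deposited values of 1 TPM or more lack their decimal mark. The mark was placed by requiring that the deposited mean and standard error of both cell lines come out as written, which fixed it for 21 of the 48 genes. For the other 27 genes the mark is open by a factor of 10 or 100, in the same way for both cell lines. Their levels are given below as alternatives, or at the lowest mark where so stated. Where a pair of levels is given without further words, the first is that of MDA PCa 2b. The ratio between the cell lines does not depend on the mark, nor does whether a gene reached 1 TPM, the level used here, in each cell line by itself, for an expressed gene. The study applies 1 TPM to an average over samples instead.

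The labels were checked against markers. Luminal prostate genes were high in MDA PCa 2b, with KLK3 at 5323 TPM and TMPRSS2 at 482.9 TPM, and in RC77 T/E they were listed at 0 and 0.108 TPM. Basal genes had the opposite pattern, with KRT5 at 0.00435 TPM in MDA PCa 2b against 4027 TPM in RC77 T/E. Of 8 leukocyte markers, 5 were listed at 0 in RC77 T/E, among them PTPRC, LYZ, CD2 and SPI1, and none of the 8 reached 1 TPM in MDA PCa 2b. The summed level of the 8 was 1.30 TPM in MDA PCa 2b against 42.9 TPM in RC77 T/E, where CD68 at 37.9 TPM and CD14 at 4.92 TPM made up nearly all of it. The 3 markers of plasmacytoid dendritic cells, the strongest interferon producers in blood, were at most at 0.0131 TPM. The part of other cells in the results was not tested further. In bulk RNA, fewer cells of a type and less RNA per cell cannot be told apart. Of 8 genes that every cell uses, 5 differed by less than 2-fold. ACTB was 2.40-fold higher in RC77 T/E and RPLP0 2.51-fold higher in MDA PCa 2b, so genes of this kind can also pass 2-fold in either direction. The remaining gene, EEF1A1, was at 2393 TPM in RC77 T/E and is listed at 0 in MDA PCa 2b. A value of exactly 0 in this table can thus be a failed estimate, and below it is reported only as listed at 0.

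In RC77 T/E, 46 of the 48 genes reached 1 TPM, and in MDA PCa 2b 31 did. Over all genes of the table the shares were 52.8% and 49.6%. The 31 genes expressed in MDA PCa 2b were also expressed in RC77 T/E, and 15 genes, or 31.2%, were expressed in RC77 T/E only, beside 7.10% of all genes. These 15 were largely antiviral effectors: IFI27, IFITM1, IFIT1, IFIT2, IFIT3, MX1, MX2, SAMD9, SAMD9L, XAF1 and IFI44L, together with OAS2, OASL, TLR3 and GBP1. No member was expressed in MDA PCa 2b only, beside 3.93% of all genes, and no member was listed at 0 in RC77 T/E while expressed in MDA PCa 2b, beside 0.879%. RSAD2 and GBP2 stayed under 1 TPM in both.

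On the scale of log2(TPM + 1), with open marks at the lowest position, 28 of the 48 genes, or 58.3%, were higher by at least 2-fold in RC77 T/E, as were 19.4% of the 11624 genes whose mean reached 1 TPM. In MDA PCa 2b 1 member, IFITM2, or 2.08%, was higher by at least 2-fold, beside 20.0% of those genes. By at least 4-fold, 16 members, or 33.3%, were higher in RC77 T/E, beside 9.69% of those genes, and none in MDA PCa 2b, beside 6.19%. With open marks at the highest position, 28 and 2 members passed 2-fold in the respective direction, beside 21.1% and 22.9% of genes. The median log2 ratio at the lowest marks, RC77 T/E over MDA PCa 2b, was 1.16 for the 48 genes and -0.15 for all 11624 genes. After centring on that median the background was 21.9% and 16.2%, and 29 members were higher in RC77 T/E, with 0 in MDA PCa 2b. A mean of at least 1 TPM was reached by 44 of the 48 members. The counts above cover all 48. Closest to the 2-fold line were XAF1 at a log2 ratio of 1.05 and JAK2 at 1.10 inside it, IFITM2 at -1.11 inside it on the other side, and STAT2 at 0.89 and USP18 at -0.92 outside it.

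**Figure D1:**
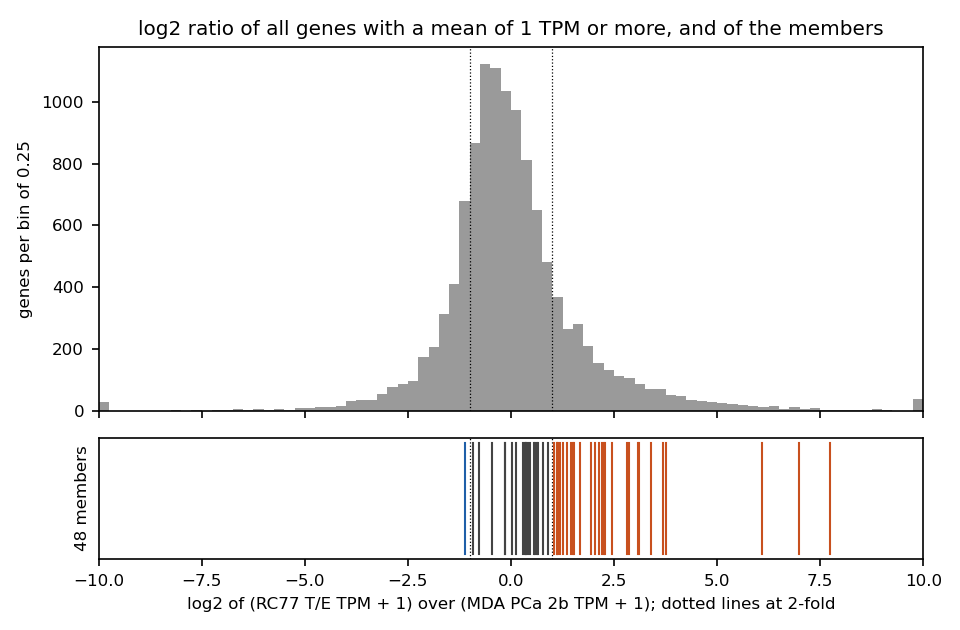
Upper panel, number of genes by log2 ratio of TPM, RC77 T/E over MDA PCa 2b, after adding a pseudocount of 1 TPM, in bins of 0.25, over the 11624 genes whose mean reached 1 TPM, where the end bins also hold all larger ratios. Lower panel, 1 line for each of the 48 interferon-pathway genes, with 28 beyond the right dotted line at 2-fold and 1 beyond the left one.

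The plain ratio was also compared for genes expressed in both cell lines. Among the 31 such members, whose ratio needs no pseudocount and does not depend on the decimal mark, 14, or 45.2%, were higher by at least 2-fold in RC77 T/E, beside 14.1% of 9767 such genes. In the other direction it was 2 members, IFITM2 and USP18, or 6.45%, beside 22.2% of such genes. The median ratio, RC77 T/E over MDA PCa 2b, was 1.87 for these members and 0.838 for all such genes.

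**Figure D2:**
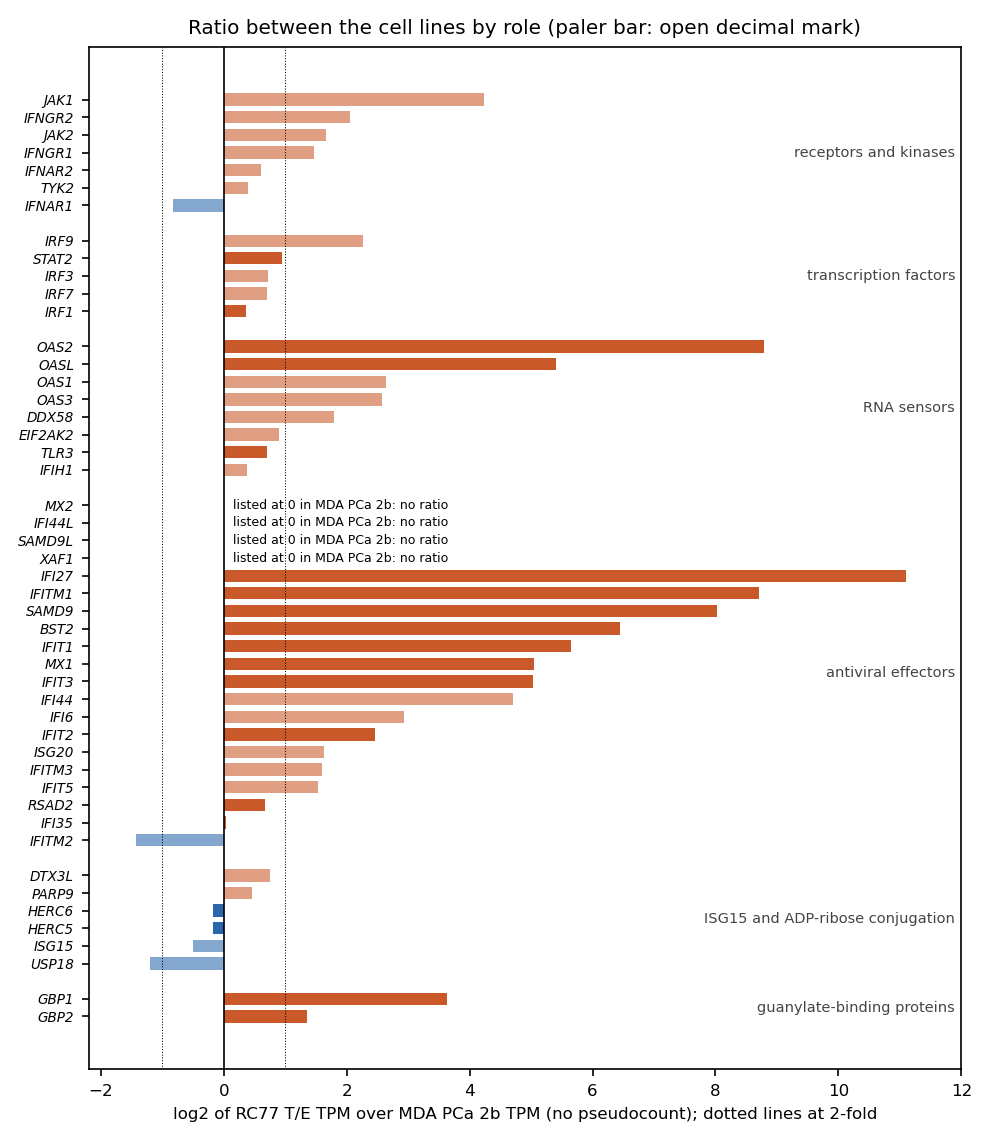
Log2 of RC77 T/E TPM over MDA PCa 2b TPM, with no pseudocount, for each of the 48 genes by role, where orange bars are higher in RC77 T/E and blue bars higher in MDA PCa 2b (1 library each), paler bars have an open decimal mark, and 4 genes listed at 0 in MDA PCa 2b have no ratio. IFI27, OAS2 and IFITM1 have the longest bars, and bars of the ISG15 group lie near 0 or to its left.

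Promoters were examined for what the members share in sequence. RefSeq promoter windows (GRCh38.p14), which run from 250 bases before to 50 bases after a start site, were found for 38 of the 48 members. IFNAR2, IRF3, IRF7, OAS2, OASL, IFIT2, IFITM2, MX2, USP18 and GBP2 had no window in the promoter set used here. Their promoters were therefore not searched, and the motif counts leave them out. The windows found were searched on both strands for GAAA followed by NN and a further GAAA, the core of the interferon-stimulated response element, and for the gamma-activated site TTCNNNGAA. The core lay in a window of 23 of 38 members, or 60.5%, and of 4.37% of 27185 genes with a window. It lay in windows of 14 of 17 antiviral effectors, 4 of 6 RNA sensors and 4 of 5 genes of the ISG15 group, and of 0 of 6 receptors and kinases. The gamma-activated site lay in windows of 9 of 38 members, or 23.7%, and of 9.37% of all genes. Its 9 letters can overlap those of the core. A match is a run of letters and not a site shown to be used. A share of the core above that of all genes is in part built into the list. Its members were chosen by name, many of them as interferon-stimulated genes, so the share describes the list only. The next lines give the stretch around the core matches, with the matches in capitals, 5′ to 3′ on the strand of the gene. The first 4 genes are among those with the largest ratios between the cell lines, and the last 4 are genes with the same letters whose levels differed by less than 2-fold.
IFI27: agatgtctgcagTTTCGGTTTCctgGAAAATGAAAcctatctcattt
IFITM1: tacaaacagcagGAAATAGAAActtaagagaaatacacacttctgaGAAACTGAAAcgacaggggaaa
BST2: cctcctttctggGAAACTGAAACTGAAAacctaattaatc
IFIT1: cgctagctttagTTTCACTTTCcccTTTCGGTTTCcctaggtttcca
ISG15: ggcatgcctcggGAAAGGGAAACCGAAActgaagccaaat
HERC5: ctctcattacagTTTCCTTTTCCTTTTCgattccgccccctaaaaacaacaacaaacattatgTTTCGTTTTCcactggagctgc
PARP9: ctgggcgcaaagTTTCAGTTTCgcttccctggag
DTX3L: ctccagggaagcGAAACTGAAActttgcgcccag

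These stretches lie at chr14:94110616-94110662 (plus strand) for IFI27, chr11:313988-314055 (plus) for IFITM1, chr19:17405733-17405772 (minus) for BST2 and chr10:89392495-89392541 (plus) for IFIT1. For ISG15 the position is chr1:1013372-1013411 (plus) and for HERC5 chr4:88456982-88457066 (plus). PARP9 and DTX3L start next to each other on opposite strands, and their stretch is the same stretch of DNA, chr3:122564320-122564353, read from either strand. In BST2, ISG15 and HERC5, matches to the core overlap into a longer run. Of the 23 members with a core in a window, 15 were higher by at least 2-fold in RC77 T/E, and of the 15 members without it 9 were. The share of members higher by at least 2-fold in RC77 T/E was thus 65.2% with the core and 60% without it. Of the 11624 genes whose mean reached 1 TPM it was 19.4%. The 8 members with a core and a smaller difference were IFIH1, TLR3, EIF2AK2, RSAD2, ISG15, HERC5, PARP9 and DTX3L.

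**Figure D3:**
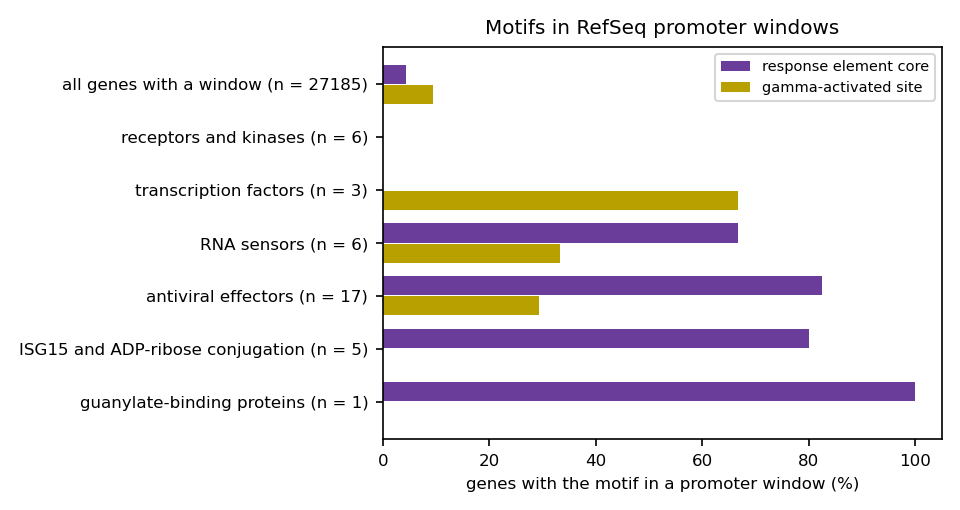
Percent of genes with at least 1 match in a RefSeq promoter window, for the interferon-stimulated response element core (purple) and the gamma-activated site (yellow), in all 27185 genes with a window and in the members by role, with the number of genes in brackets. The core was in 82.4% of antiviral effectors and 4.37% of all genes, and in none of the 6 receptors and kinases.

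All 7 receptor and kinase genes were expressed in both cell lines, and in 4 of them the RC77 T/E level was higher by at least 2-fold. Over all genes, 49.6% were expressed in MDA PCa 2b, 52.8% in RC77 T/E, and 19.4% passed 2-fold in that direction. JAK1, the kinase that type I and type II interferon receptors share, differed most. It was at 1.14 TPM in MDA PCa 2b against 21.3 TPM in RC77 T/E, or at 11.4 and 213.4 TPM, which is 18.8 times as high in RC77 T/E at either mark. The other kinase of the type I receptor, TYK2, was nearly level, at 15.7 and 20.6 TPM or 157.5 and 206.4 TPM, a ratio of 1.31. JAK2, which pairs with the interferon gamma receptor, was 3.18-fold higher in RC77 T/E and lay at 1.12 and 3.55 TPM at its lowest mark.

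The type I receptor chains went opposite ways. IFNAR1 was 1.77-fold higher in MDA PCa 2b, at 17.5 TPM against 9.91 TPM or 10 times these values. IFNAR2 was 1.52-fold higher in RC77 T/E, at 8.94 and 13.6 TPM or 89.4 and 136 TPM. For IFNAR2, 44.5% of the 31-base stretches of its transcripts also occur in other genes, most of them in AP000295.1, which overlaps it on the same strand, so its level is uncertain. Both chains of the interferon gamma receptor were higher in RC77 T/E. IFNGR1, the ligand-binding chain, was 2.76 times as high and IFNGR2 4.16 times as high. At their lowest marks IFNGR1 was at 1.93 and 5.34 TPM, and IFNGR2 at 1.51 and 6.28 TPM. IFNAR2, IFNAR1 and IFNGR2 lie within 1 region of chromosome 21 (GRCh38, 33205282 to 33479348), which also holds IL10RB, a chain of the type III receptor described further on, and the ratios of these genes had no common direction.

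Of the 5 transcription factors, 1 was higher by at least 2-fold in RC77 T/E, a share near the 19.4% of the 11624 genes. This was IRF9, the DNA-binding partner in ISGF3, at 4.33 TPM in MDA PCa 2b against 20.8 TPM in RC77 T/E or 43.3 and 208.4 TPM, a ratio of 4.82. Of its 31-base stretches, 49.5% occur in other genes, mainly in the overlapping gene AL136295.5 on its own strand, and how reads were divided between them is not given in the sources used here. STAT2, the ISGF3 subunit that provides transactivation, had a fixed mark and was at 11.1 and 21.5 TPM, a ratio of 1.94. Its log2 ratio of 0.89 passed 2-fold after centring, at 1.05, and after scaling to the upper quartile, also at 1.05. IRF3, which is activated downstream of the RNA sensors, was 1.64 times and IRF7, which amplifies interferon production, 1.62 times as high in RC77 T/E. Their lowest possible levels were 3.37 and 5.55 TPM for IRF3 and 6.10 and 9.89 TPM for IRF7. IRF1, an activator of many of the same promoters, was the least different, at 4.10 and 5.24 TPM.

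All 8 RNA sensor genes were higher in RC77 T/E, 5 of them by at least 2-fold, beside 19.4% of the 11624 genes compared above. The 2′-5′-oligoadenylate synthetases OAS1, OAS2 and OAS3 accounted for 3 of those 5. These enzymes are activated by double-stranded RNA and make the messenger that switches on RNase L. OAS1, OAS3 and OAS2 lie side by side on chromosome 12 (GRCh38, 112905856 to 113011723), yet their levels in MDA PCa 2b differed widely. OAS2 was at 0.0277 TPM in MDA PCa 2b against 12.3 TPM in RC77 T/E, a ratio of 444.2 that rests on a value near 0. OAS1 was at 1.85 and 11.4 TPM or 10 times these, and OAS3 at 3.23 and 19.2 TPM or 10 times these, with ratios of 6.19 and 5.95. OASL, a related protein that lacks the enzyme activity, was at 0.0956 and 4.04 TPM.

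The RNA helicases that signal through MAVS differed from each other. DDX58, which encodes RIG-I, the sensor of short RNA with a triphosphate end, was 3.46-fold higher in RC77 T/E, at 2.47 and 8.53 TPM or 24.7 and 85.3 TPM. IFIH1, which encodes MDA5, the sensor of long double-stranded RNA, was nearly level, with a ratio of 1.30 and levels of 7.66 and 9.97 TPM at the lowest mark. EIF2AK2, the RNA-activated kinase that stops translation and is known as PKR, was 1.87-fold higher in RC77 T/E, at 4.13 and 7.74 TPM at the lowest mark. TLR3, the endosomal sensor of double-stranded RNA, was low in both, at 0.791 TPM in MDA PCa 2b against 1.29 TPM in RC77 T/E.

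Antiviral effectors held the largest differences, with 17 of 20 higher by at least 2-fold in RC77 T/E, beside 19.4% of the 11624 genes. IFITM2 alone was higher by at least 2-fold in MDA PCa 2b, beside 20.0% of those genes. RSAD2 and IFI35 fell in neither set. In MDA PCa 2b, 8 of the 20 reached 1 TPM, and in RC77 T/E 19 did, beside 49.6% and 52.8% of all genes. The 3 genes that stood highest in RC77 T/E among members with a fixed mark were BST2, IFI27 and IFITM1. BST2 encodes tetherin, which holds budding virus particles on the cell surface, and was at 3.33 TPM in MDA PCa 2b against 291 TPM in RC77 T/E, 87.5 times as high. IFI27, which encodes a mitochondrial protein, was at 0.107 and 234.1 TPM, a ratio of 2195 that again rests on a value near 0. IFITM1, which blocks fusion of viruses with the cell membrane, was at 0.434 and 181 TPM, a ratio of 416.8. Depending on the open marks of other genes, between 208 and 2049 genes in RC77 T/E were higher than BST2, between 228 and 2537 higher than IFI27 and between 262 and 3192 higher than IFITM1.

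**Figure D4:**
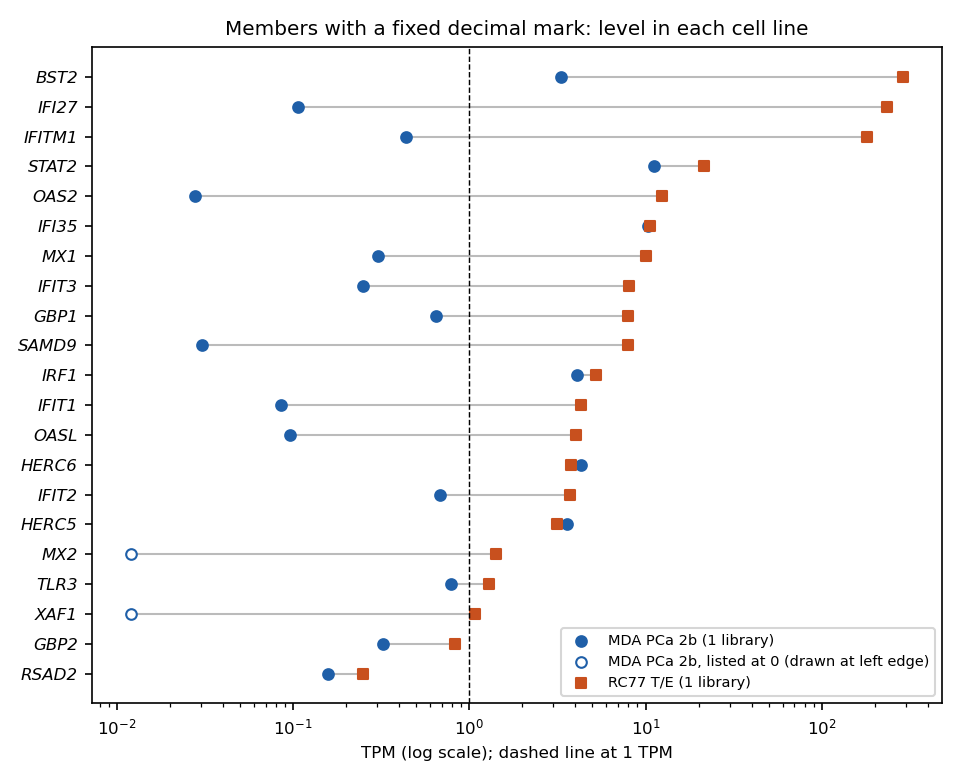
TPM on a log axis in MDA PCa 2b (blue circles) and RC77 T/E (orange squares), 1 library each, for the 21 members whose decimal mark is fixed, in order of their level in RC77 T/E, with MX2 and XAF1, which are listed at 0 in MDA PCa 2b, drawn as open circles at an arbitrary place. BST2, IFI27 and IFITM1 lie above 100 TPM in RC77 T/E, while IFI35, IRF1, HERC5 and HERC6 have nearly the same level in both.

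IFITM2 and IFITM3 differed much less than IFITM1, although the genes lie together within a short stretch of chromosome 11 (GRCh38, 303655 to 329475). IFITM3, which acts in endosomes, was 3.03-fold higher in RC77 T/E, with lowest possible levels of 1.67 and 5.07 TPM. IFITM2 was 2.69-fold higher in MDA PCa 2b, at 5.91 and 2.20 TPM or 10 or 100 times these. The genes are close copies, and 35.3% of the 31-base stretches of IFITM1, 45.2% of IFITM2 and 36.4% of IFITM3 occur in other genes. How reads were divided between them is not given in the sources used here, so the opposite direction of IFITM1 and IFITM2 is uncertain. After centring, or scaling to the upper quartile, the ratio of IFITM2 kept its direction and fell short of 2-fold.

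The IFIT genes, whose proteins bind foreign RNA ends and block its translation, lie in 1 cluster on chromosome 10 (GRCh38, 89283694 to 89421605), and all 4 were higher in RC77 T/E. In the order MDA PCa 2b, then RC77 T/E, levels were 0.0856 and 4.30 TPM for IFIT1 and 0.249 and 8.09 TPM for IFIT3, ratios of 50.3 and 32.5. IFIT2 was at 0.683 and 3.75 TPM. IFIT5 was the only member of the cluster expressed in MDA PCa 2b, at 1.70 TPM or 10 or 100 times that, and the RC77 T/E level was 2.90 times as high. LIPA overlaps IFIT1, IFIT2 and IFIT3 on the opposite strand. The sources used here do not give whether counting took strand into account.

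MX1, a GTPase that traps viral nucleocapsids, was at 0.304 TPM in MDA PCa 2b against 10.1 TPM in RC77 T/E, a ratio of 33.1. Its neighbour MX2 was at 1.41 TPM in RC77 T/E and is listed at 0 in MDA PCa 2b. The same pattern of 0 in MDA PCa 2b was seen for XAF1, a pro-apoptotic gene at 1.07 TPM in RC77 T/E, for SAMD9L at 2.21 or 22.1 TPM and for IFI44L at 2.83, 28.3 or 283.2 TPM. In all, 4 of 48 members, or 8.33%, were listed at 0 in MDA PCa 2b and expressed in RC77 T/E, beside 1.14% of all genes. SAMD9 and SAMD9L, neighbours on chromosome 7 that restrict poxviruses, were both expressed in RC77 T/E only. SAMD9 was at 0.0303 and 7.91 TPM. IFI44, next to IFI44L on chromosome 1, was 25.96-fold higher in RC77 T/E, at 1.01 and 26.2 TPM or 10 times these.

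IFI6, an inhibitor of apoptosis and of flavivirus replication, was already expressed in MDA PCa 2b, at 9.78 or 97.8 TPM, and the RC77 T/E level was 7.63 times as high. ISG20, an exonuclease that degrades RNA, was 3.10 times as high there, at 2.79 and 8.66 TPM at the lowest mark. IFI35 was level, at 10.3 TPM in MDA PCa 2b against 10.6 TPM in RC77 T/E. RSAD2, which encodes viperin, makes a chain-terminating nucleotide against viral polymerases. It was at 0.157 and 0.251 TPM and so was under 1 TPM also in RC77 T/E, where the other 19 effectors were expressed. Its neighbour CMPK2, which makes the substrate of viperin and overlaps it on the opposite strand, was at 1.46 TPM in MDA PCa 2b against 0.316 TPM in RC77 T/E.

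The 6 genes of ISG15 conjugation and of the PARP9-DTX3L complex had small differences. All 6 were expressed in both cell lines. Of all genes, 52.8% reached 1 TPM in RC77 T/E and 49.6% did in MDA PCa 2b. None of the 6 was higher by at least 2-fold in RC77 T/E, beside 19.4% of the 11624 genes. A set of 6 genes is too small to set a count of 0 apart from that share. Of the 6, 4 were lower in RC77 T/E as deposited, and 2 of these, HERC5 and HERC6, were minimally higher there after centring. ISG15 encodes the ubiquitin-like protein that is attached to newly made proteins after interferon. It was at 8.96 TPM in MDA PCa 2b against 6.30 TPM in RC77 T/E, or 89.6 and 63.0 TPM, 1.42 times as high in MDA PCa 2b. USP18, which removes ISG15 and also blocks signaling at IFNAR2, was 2.30-fold higher in MDA PCa 2b, with lowest possible levels of 5.14 and 2.24 TPM. With the pseudocount of 1 TPM it passed 2-fold at the highest mark only. Of its 31-base stretches, 30.8% occur in other genes, mainly in its near copy USP41. HERC5, the main ligase for ISG15, was at 3.58 and 3.16 TPM, and HERC6, its neighbour on chromosome 4 and relative, at 4.29 and 3.80 TPM. Centring on the median of all genes turned the log2 ratios of HERC5 from -0.14 to 0.016 and of HERC6 from -0.14 to 0.013. PARP9 and DTX3L, which form a complex of an ADP-ribosyltransferase and a ubiquitin ligase, start at the shared stretch of DNA printed above and were 1.38 and 1.69 times as high in RC77 T/E. Their lowest possible levels were 6.62 and 9.11 TPM for PARP9 and 4.68 and 7.89 TPM for DTX3L.

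GBP1, a GTPase that coats bacteria and is induced mainly by interferon gamma, was at 0.646 TPM in MDA PCa 2b against 7.98 TPM in RC77 T/E, 12.3 times as high. GBP2 was at 0.325 and 0.833 TPM. Of the 31-base stretches, 18.4% of those of GBP1 and 12.3% of those of GBP2 occur in other genes, mainly in GBP1P1 and GBP7.

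A list of 80 other genes of the pathway was looked up in the same way, and 76 were found. TMEM173, MB21D1, TRIM25 and UBA7 were not analysed here. Higher by at least 2-fold were 26 of the 76, or 34.2%, in RC77 T/E and 5, or 6.58%, in MDA PCa 2b. Of the 11624 genes whose mean reached 1 TPM, 19.4% and 20.0% were. That mean was reached by 48 of the 76, and the counts cover all 76. Without that filter, over all genes above 0 in a cell line, the shares were 14.4% and 14.5%. Of the 16 interferon genes, 10 are listed at 0 throughout, while 16832 of the 21382 genes of the table were above 0 in a cell line. None of the 16 was expressed in MDA PCa 2b, beside 49.6% of all genes, and 2 were in RC77 T/E only, beside 7.10%. IFNB1 was at 0.0466 and 0.251 TPM. The interferons that reached 1 TPM were IFNK and IFNE, which epithelia make, at 7.18 and 3.35 TPM or 10 or 100 times these in RC77 T/E, and both are listed at 0 in MDA PCa 2b. IFNLR1, the receptor chain specific for type III interferons, was at 0.660 and 4.15 TPM, whereas its partner IL10RB was 3.15-fold higher in MDA PCa 2b.

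Among sensors and adaptors, the DNA sensor IFI16 had the widest ratio, at 0.0360 TPM in MDA PCa 2b against 79.4 TPM in RC77 T/E. DHX58, which encodes LGP2, the third helicase of the RIG-I family, was at 0.0462 and 4.13 TPM. Of the adaptors and kinases between the sensors and the interferon genes, MAVS was at 14.7 and 12.6 TPM or 10 times these, TBK1 at 9.61 and 9.74 TPM and TICAM1 at 10.1 and 12.9 TPM. IKBKE, another of these kinases, was 1.9-fold higher in RC77 T/E, at 2.64 and 5.04 TPM at the lowest mark. TRAF3 and MYD88 were 2.78 and 2.30 times as high in MDA PCa 2b.

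Of 29 other interferon-induced genes found, 16 were higher by at least 2-fold in RC77 T/E, beside 19.4% of the 11624 genes. PARP10 alone was higher by at least 2-fold in MDA PCa 2b, beside 20.0% of those genes. UBE2L6, the conjugating enzyme for ISG15, was at 0.285 and 39.1 TPM, a ratio of 137.2, in contrast to the nearly level HERC5. PLSCR1, at 0.646 and 19.7 TPM, TRIM22, with a ratio of 8.23, and PARP14, with a ratio of 6.43, were among the others. The chemokine CXCL11 was at 0.0782 and 5.10 TPM, and CXCL10 is listed at 0 in MDA PCa 2b and was at 6.80 TPM or 10 or 100 times that in RC77 T/E. The others higher in RC77 T/E were EPSTI1, LGALS3BP, SP100, HELZ2, SLFN5, SLFN11, NMI, LAMP3, GBP3 and PML, with levels in RC77 T/E from 1.22 TPM upward. Of 6 negative regulators, 3 were higher by at least 2-fold in RC77 T/E, beside 19.4% of the 11624 genes. These were SOCS1 at 0.307 and 4.12 TPM, SOCS3 at 0.0570 and 3.34 TPM and PTPN1, with a ratio of 3.27. PIAS1 alone passed 2-fold the other way, at 2.57-fold higher in MDA PCa 2b, beside 20.0% of those genes. STAT4, at 0.0226 and 2.00 TPM, was also higher in RC77 T/E.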

How the data were processed

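The 48 members and the other gene lists were chosen with earlier results of these data known. Per the labels, RNA of each cell line was made into a paired-end library with a directional kit. The submitters' processing notes name CASAVA, FastQC 0.11.9, Trimmomatic 0.38, Salmon 1.2.0 and GRCh38, with no role or order. The row identifiers have the form that Cufflinks gives, and the program that computed TPM is not given in the sources used here. The deposited values are TPM with, in most values of 1 or more, the decimal mark missing, and they come with the authors' mean and standard error, which were used only to place the mark.

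Of 22791 rows, 16283 had 1 position of the mark and 6508 had several. Positions with up to 3 digits before and at least 3 after the mark were tried, and the procedure was tested on simulated data. Sums and calls use the lowest position. Repeats of a locus, found in 87 rows, were dropped, and values of all loci of a symbol were added up. Log2 ratios have a pseudocount of 1 TPM and so understate changes at low levels. There is no test, since each cell line has 1 library. The genes named are all members, other pathway genes expressed in a cell line and at least 2-fold different, and, chosen after their values were seen, CMPK2, IFNB1, MAVS, TBK1, IKBKE, TICAM1 and marker genes. A few genes of the pathway and marker lists are counted but not reported here by name. Gene overlaps, and stretches of 31 bases shared between transcripts, were taken from GENCODE release 29, where 48 of 48 members started within 100 kb of the deposited position. Only 8 of them had the same start and end there as deposited. The overlaps and shared stretches can therefore differ from those of the gene models behind the deposited TPM. Python 3.11.15, numpy 2.4.6 and matplotlib 3.10.9 were used.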

Additional observations from a re-analysis of the deposited data

How the results depend on the processing

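No paired analysis was possible because only 1 library was made per cell line. The number of members expressed in MDA PCa 2b fell to 12 when 5 TPM was required at the lowest decimal marks, and was 27 at the highest marks, a setting chosen after seeing the data. Requiring 4-fold in place of 2-fold left 16 members and 17 other pathway genes higher in RC77 T/E, and 0 and 0 higher in MDA PCa 2b. The background at 4-fold was 9.69% and 6.19% of genes. The count of members higher in MDA PCa 2b was 2 with a pseudocount of 0.1 TPM, 2 with open marks at the highest position, 0 after scaling to the upper quartile and 0 after centring, and that of other pathway genes was 3 after centring. The remaining counts stayed within 1.5 times of their values under each setting tried. The count of members higher in RC77 T/E lay between 28 and 29 under the pseudocount, scaling, locus and decimal mark settings, and was 24 without the genes listed at 0, a setting added after seeing the data. The median log2 ratio of the members ranged from 1.12 without those genes to 1.59 with a pseudocount of 0.1 TPM. With that pseudocount the log2 ratio of 14 members moved by over 1.5 times and that of none changed sign. Without a filter on low values the background was 14.4% and 14.5% of genes. Depth is unknown, so no limit of detection can be given for values near 0.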
